A study of Homo sapiens with 6 samples.

Results

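The genes described here encode RNA polymerase I and the factors that build ribosomes. They are a fixed list of 60 gene symbols, matched by gene name to the deposited expression table, and all 60 were found among its 9598 distinct gene names. Each was above 0 FPKM (sequenced fragments divided by transcript length and by library size) in all 6 libraries. They fall into 6 groups by the step they serve: RNA polymerase I and its factors (8 genes), nucleolar scaffold proteins (4), the box C/D particle (4), the box H/ACA particle (5), small subunit processing (23) and large subunit processing (16). RNA came from 3 human bladder cancer cell lines after 2 days with quisinostat, an inhibitor of histone deacetylases, or with its vehicle DMSO. RT4 cells (genotype FGFR3-TACC3 fusion) received 50 nM, RT112 cells (also FGFR3-TACC3 fusion) 10 nM and SW780 cells (FGFR3-BAIBP2L1 fusion, as the label spells it) 25 nM, so that every group carries an FGFR3 fusion and dose and line change together. Each line and treatment has 1 library, and RT4 cells were grown in another medium than the other lines. A difference within a line therefore has no replicate check, and an effect of dose, of medium and of line cannot be told apart.

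Ribosomes are assembled in the nucleolus. RNA polymerase I transcribes the large ribosomal RNA precursor, box C/D and box H/ACA small nucleolar RNA particles methylate and pseudouridylate it, and a succession of assembly factors folds and cleaves it into the RNAs of the small and the large subunit. The pathway is highly active in growing cancer cells, where the nucleolus is enlarged, and the genes for these factors are themselves transcribed by RNA polymerase II.

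Stretches upstream of 4 of these genes are shown as examples of both directions: GNL3L, NCL and DDX21 were lower with quisinostat in every line (GNL3L the most of all members by its mean ratio, DDX21 just past the limit used below), and NOP10 was higher. A RefSeq start site (GRCh38.p14) was matched for 49 of the 60 genes. Each sequence is the longest run, within the 250 bases upstream of that start, that no GENCODE exon covers, read 5′ to 3′ on the gene's strand. The stretches are chr2:231464595-231464734 on the minus strand for NCL, chr10:68955920-68956127 on the plus strand for DDX21, chrX:54529969-54530210 on the plus strand for GNL3L and chr15:34343178-34343314 on the minus strand for NOP10. Capitals mark CACGTG, the E-box that MYC and related factors bind, and CCGGAAG or its reverse complement CTTCCGG, a core of ETS factor sites.
NCL: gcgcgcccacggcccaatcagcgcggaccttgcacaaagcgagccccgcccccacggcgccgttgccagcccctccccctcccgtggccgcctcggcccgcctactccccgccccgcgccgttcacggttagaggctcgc
DDX21: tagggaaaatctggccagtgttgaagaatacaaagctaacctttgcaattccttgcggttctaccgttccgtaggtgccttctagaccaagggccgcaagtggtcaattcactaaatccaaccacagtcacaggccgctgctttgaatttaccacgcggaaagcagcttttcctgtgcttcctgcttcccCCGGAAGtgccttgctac
GNL3L: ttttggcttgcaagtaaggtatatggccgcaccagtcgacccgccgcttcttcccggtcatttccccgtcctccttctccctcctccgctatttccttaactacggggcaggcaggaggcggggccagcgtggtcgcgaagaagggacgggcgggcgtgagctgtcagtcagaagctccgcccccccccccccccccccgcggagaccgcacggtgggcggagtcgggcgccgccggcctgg
NOP10: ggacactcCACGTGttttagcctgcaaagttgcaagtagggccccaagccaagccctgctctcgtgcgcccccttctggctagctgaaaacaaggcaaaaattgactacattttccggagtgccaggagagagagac

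The NCL stretch is 77.1% G and C and the GNL3L stretch 69%, and neither holds either motif. The DDX21 stretch is 50.5% G and C and holds 1 CCGGAAG, which begins 60 bases before the start. The NOP10 stretch is 54% G and C and holds 1 CACGTG, 170 bases before the start. Motifs were then counted over the whole 250 bases on both strands, at any RefSeq start of a gene (9 of the 49 have more than 1). CACGTG was found for 7 of the 49 genes (14.3%). It was found for 7.73% of all 27305 genes with a RefSeq promoter and 11.4% of the 7249 of these that the expression table names. The 7 were NOP10, UTP4, UTP14A, UTP18, UTP20, DDX21 and EBNA1BP2. DDX21 has 2 RefSeq starts, and the 250 bases of the one shown hold 0 CACGTG, so its match lies at the other. CCGGAAG, which cannot overlap with CACGTG, was found for 20 of the 49 (40.8%), against 10.2% of all genes and 19.9% of those in the table. Its 20 carriers included POLR1B, POLR1C, RRN3, TAF1D, FBL, NOP10, GAR1, UTP4, DDX21, NOC2L and EBNA1BP2. GGGCGG, the GC box, stood in 36 of the 49 (73.5%), close to the 75.6% of genes in the table. The carriers of CCGGAAG had a median log2 ratio of -0.13 in RT4 cells against -0.66 for the members without it, -0.47 against -0.48 in RT112 cells and -0.04 against -0.23 in SW780 cells. Other motifs split the members in RT4 cells too: with and without CCAAT (or ATTGG) the medians were -0.11 and -0.54, and with and without GGGCGG (or CCGCCC) -0.50 and -0.15. All of these medians are of ratios not corrected for the GC content of the transcripts. In RT4 cells the ratios of the 60 members were lower at higher transcript GC content (Spearman's rho -0.70). Whether the splits by motif go beyond GC content was not tested. A match in letters is a description of the window and was not tested against binding.

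In the DMSO libraries the median FPKM of the members was 17.9 in RT4 cells, 20.2 in RT112 and 19.1 in SW780 cells, against 6.86, 6.59 and 6.93 for all assembled loci. NPM1 (nucleophosmin, a nucleolar chaperone) was the highest, with a mean of 266 FPKM over the 3 DMSO libraries. NOP10 (a core protein of the H/ACA particle) followed at 192 FPKM and NCL (nucleolin, an RNA-binding protein of the nucleolus) at 177 FPKM. These 3 genes made up 34.1% to 34.6% of the summed FPKM of the members in each DMSO library. At the other end stood NAF1, an assembly factor of the H/ACA particle, with a mean of 2.97 FPKM. No line was the high one throughout: 22 members were highest in RT4 cells, 20 in RT112 and 18 in SW780 cells. Between the highest and the lowest line, 8 members differed at least 2-fold. TCOF1 differed the most, 163-fold, which rests on a value near 0 (0.0718 FPKM in RT4 cells, against 11.7 in SW780 cells). RRP9, which encodes a U3 particle protein, differed 4.77-fold, with 24.9 FPKM in RT4 cells, 6.51 in RT112 and 5.21 in SW780 cells.

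With quisinostat most of the members were lower. Taking log2(quisinostat FPKM / DMSO FPKM) in each line, the median over the 60 was -0.44 in RT4 cells, -0.48 in RT112 and -0.17 in SW780 cells, while the median over the 9112 loci above 0 in all libraries was 0.08, 0.06 and 0.04. A limit of 0.3 on this scale, the one the study applied, serves as a size and not as a test. Below -0.3 were 37 members in RT4 cells, where 33.5% of all loci were, 39 in RT112 cells (25.2% of loci) and 22 in SW780 cells (28.2% of loci), which is 61.7%, 65% and 36.7% of the 60. Above 0.3 were 8 in RT4 cells (40.3% of loci), 4 in RT112 cells (36% of loci) and 5 in SW780 cells (32.8% of loci). In all 3 lines at once, 14 of the 60 were below -0.3 (23.3%, against 4.99% of loci) and 0 were above 0.3 (11.4% of loci). The list was chosen with earlier results of these data known, so these shares describe the members and are not an independent test. By any amount, 27 were below 0 in all 3 lines (16.6% of loci) and 2, POLR1D and NOP10, were above 0 in all 3 (22.9% of loci). The summed FPKM of the members went from 1859 to 1578 in RT4, from 1857 to 1430.4 in RT112 and from 1822 to 1599.6 in SW780 cells, or from 0.705%, 0.722% and 0.749% of all FPKM to 0.623%, 0.551% and 0.674%. FPKM is a share of a library, so that fewer cells of a kind, less of these RNAs per cell and a change in the total RNA per cell cannot be told apart here.

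**Figure D1:**
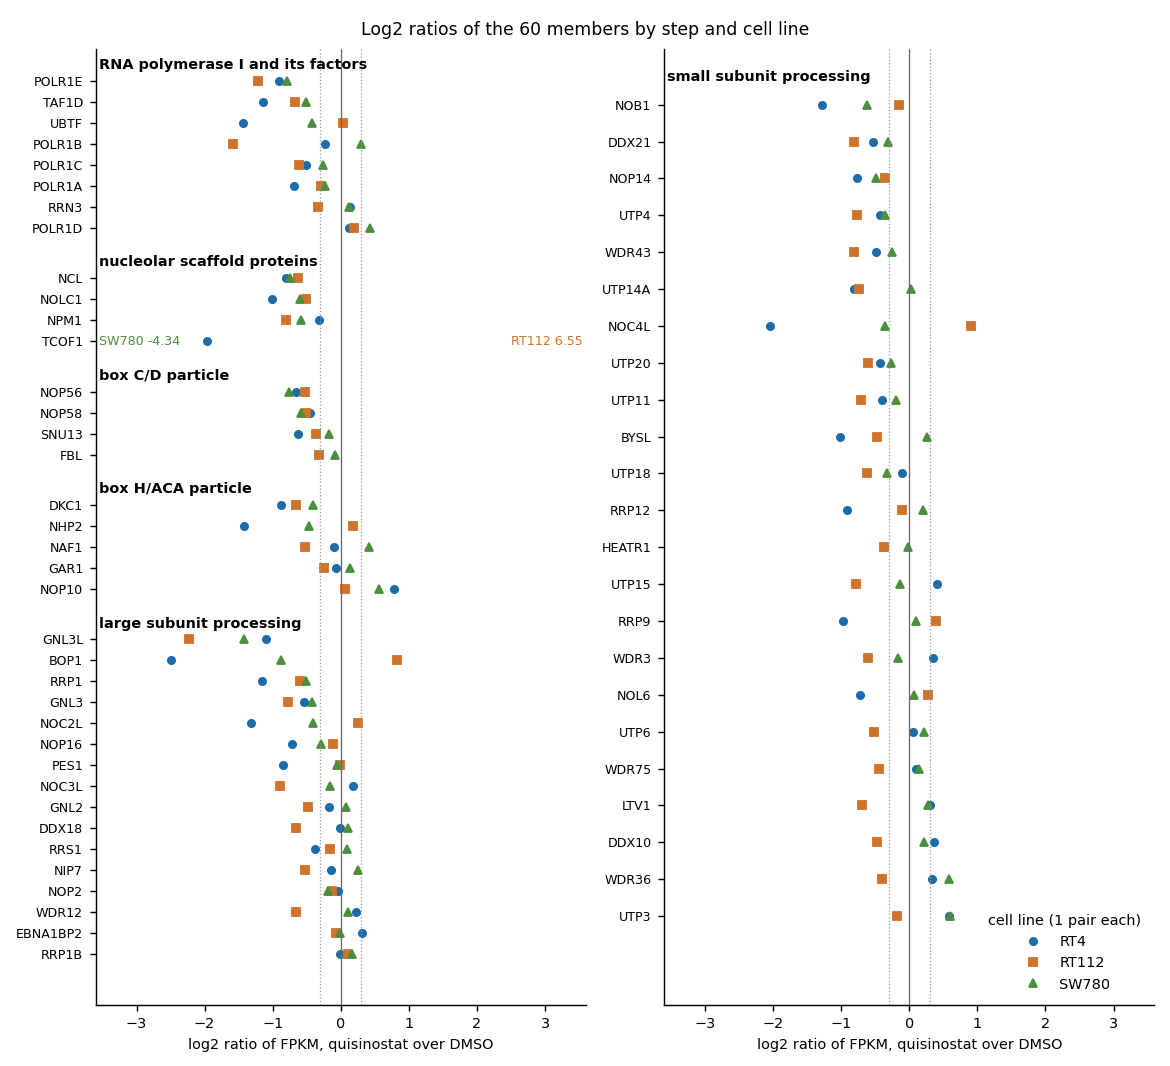
Log2 ratio of FPKM, quisinostat over DMSO, of each of the 60 members (rows, grouped by step) in RT4 (circles), RT112 (squares) and SW780 cells (triangles), 1 pair of libraries per symbol, with dotted lines at -0.3 and 0.3. For 14 members all 3 symbols lie left of -0.3 and for 0 all lie right of 0.3, and 2 values of TCOF1 off the scale are printed as -4.34 and 6.55.

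Across the lines, limma was fitted to log2(FPKM + 1) over 9430 loci whose mean reached 1 FPKM, with the cell line as a block, since the libraries of a pair come from the same line. At a Benjamini-Hochberg adjusted p under 0.05 it called 0 of the 60 members, and 0 (0%) of all loci. At an unadjusted p under 0.05, 16 members were lower, against 4.16% of loci, and 0 were higher, against 9.68% of loci. The 16 include all 14 members below -0.3 in every line, together with WDR43 and NOB1. The lowest limma adjusted p of a member was 0.257, so that the direction in 3 of 3 lines is a description of these 6 libraries. Without SW780 cells, 23 members were below -0.3 in both remaining lines, without RT112 cells 21, and without RT4 cells 15. Leaving out a line can only keep or raise the count of 14, and the share of all loci was not computed for pairs of lines. The members just inside the limit were DDX21, with -0.32 as its weakest ratio, and NPM1, also -0.32. Those just outside it were UTP20 at -0.26 and POLR1C at -0.26.

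**Figure D2:**
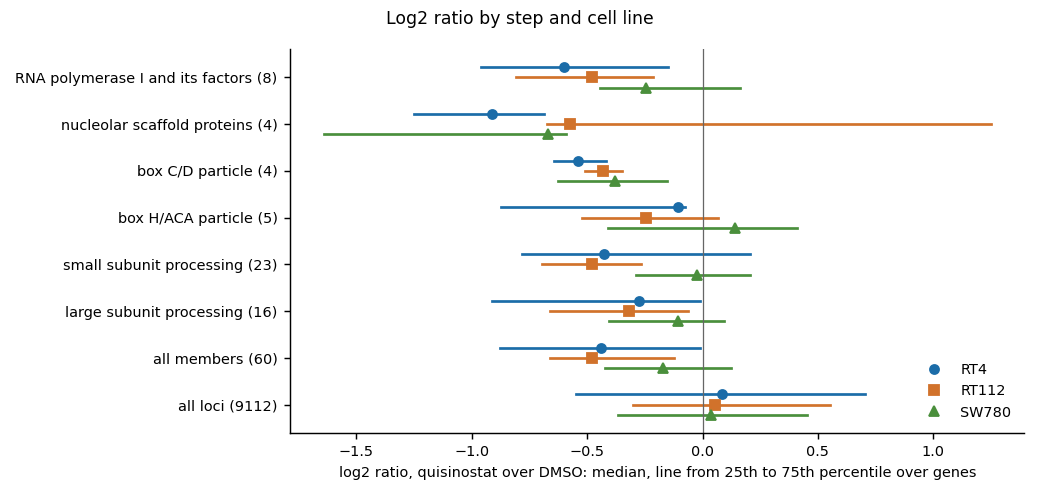
Median log2 ratio (symbols) and the range from the 25th to the 75th percentile over genes (lines) for each step, for all 60 members and for all 9112 loci, in RT4, RT112 and SW780 cells, with the number of genes in brackets. The members' medians are -0.44, -0.48 and -0.17, against 0.08, 0.06 and 0.04 for all loci, and the box H/ACA median in SW780 cells, 0.14, is -0.13 when NAF1 is left out by a filter at a mean of 5 FPKM.

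The RNA for several subunits of RNA polymerase I was lower, but not for all of them. The 8 genes of this step had median log2 ratios of -0.60 in RT4 cells, -0.48 in RT112 and -0.25 in SW780 cells. Of the 8, 2 were below -0.3 in every line, where 4.99% of all loci were. POLR1E, a subunit of the enzyme's initiation and elongation module (chromosome 9, 37485935 to 37503697, plus strand, GENCODE 29 on GRCh38), had 12.1 FPKM with DMSO and 6.47 with quisinostat in RT4, 9.32 and 4.01 in RT112, and 9.81 and 5.64 in SW780 cells. All 3 quisinostat values lie below all 3 DMSO values, with log2 ratios of -0.90, -1.22 and -0.80 (mean -0.97 ± 0.22, SD, n = 3 lines, limma adjusted p = 0.278). The share of all loci whose treatments separate in this way was not counted, here and for the genes below. Further members, among them NOLC1 and NOB1, separate in the same way without mention at each gene. TAF1D, a subunit of the selectivity factor that brings the polymerase to the ribosomal DNA promoter, had 4.58 and 2.08 FPKM in RT4, 9.24 and 5.80 in RT112, and 6.34 and 4.45 in SW780 cells. Its DMSO and quisinostat values overlap between lines, because the RT112 quisinostat library was above the RT4 DMSO library, but each pair was lower (log2 ratios -1.14, -0.67 and -0.51).

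POLR1D, a small subunit shared with RNA polymerase III, had the highest mean DMSO level of the step, with POLR1C above it in RT4 cells. It stood at 22.5 and 24.4 FPKM in RT4, 28.9 and 33.1 in RT112, and 23.8 and 32.0 in SW780 cells, higher with quisinostat in each pair (0.12, 0.20 and 0.43 on the log2 scale), though the RT4 ratio became -0.05 after correction for GC content. POLR1A, the largest subunit, was on the low side in all lines with log2 ratios of -0.69, -0.29 and -0.23, and so was POLR1C, the other subunit shared with RNA polymerase III, with -0.51, -0.62 and -0.26. For POLR1B, the second largest subunit, the lines parted: 4.85 and 4.11 FPKM in RT4, 4.19 and 1.39 in RT112, but 3.16 and 3.88 in SW780 cells. UBTF, which binds the ribosomal DNA and keeps it open, differed in RT4 cells (18.2 and 6.73 FPKM) and SW780 cells (11.8 and 8.82) but stood at 11.96 and 12.2 in RT112 cells (log2 ratio 0.03, or -0.18 corrected for GC content). RRN3, the factor that makes the polymerase competent to initiate, had log2 ratios of 0.14, -0.34 and 0.12.

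The nucleolar scaffold proteins had the lowest median of the 6 steps in each line by plain ratios. Over the 4 genes it was -0.91 in RT4, -0.58 in RT112 and -0.67 for SW780 cells. Of the 4, 3 were below -0.3 in every line (4.99% of all loci). The RT4 value rests in part on TCOF1, which is near 0 there: with a pseudocount of 1 FPKM it is -0.56, as is that of the polymerase I genes. NCL (chromosome 2, 231453531 to 231483641, minus strand) had 168 FPKM with DMSO and 95.5 with quisinostat in RT4, 186 and 120.3 in RT112, and 176 and 105 in SW780 cells. The 2 treatments did not overlap. The 3 plain log2 ratios, -0.81, -0.63 and -0.74, differed little between lines (mean -0.73 ± 0.09, SD, n = 3 lines, limma adjusted p = 0.257). Corrected for GC content they were further apart, at -1.03, -0.58 and -0.83. NPM1 (chromosome 5, 171387116 to 171411137, plus strand) had 237 and 191 FPKM in RT4, 290.0 and 166 in RT112, and 272 and 181 in SW780 cells. Its groups did not overlap either, with the smallest difference in RT4 cells (-0.32, against -0.80 and -0.58), while corrected for GC content the 3 ratios were -0.67, -0.66 and -0.69. GENCODE names 45 processed copies of NPM1, of which 2 are in the expression table, so reads may be split between them and its values are less certain than those of single-copy genes.

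NOLC1, a phosphoprotein that shuttles particles through the nucleolus, had 29.3 and 14.5 FPKM in RT4, 32.0 and 22.3 in RT112, and 25.5 and 16.9 in SW780 cells. The locus it was assembled into also carries the name PPRC1. TCOF1, the treacle protein that links polymerase I to UBTF, stood apart from every other member. It had 0.0718 and 0.0183 FPKM in RT4, 0.153 and 14.4 in RT112, and 11.7 and 0.578 in SW780 cells, so that 4 libraries were below 1 FPKM and 2 were at a level usual for the members. The log2 ratios, -1.97, 6.55 and -4.34, rest on those near-zero values, and the part that transcript assembly plays in them was not tested. Without TCOF1 (a choice made after its values were seen), 14 of 59 members were below -0.3 in all lines and the medians of the members were -0.44, -0.48 and -0.16.

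**Figure D3:**
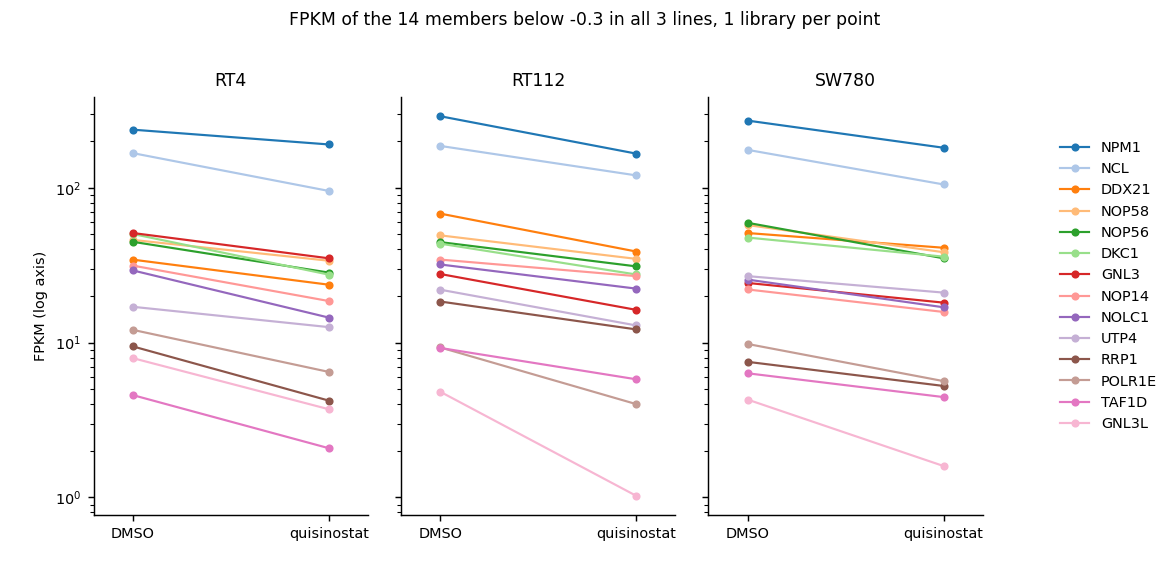
FPKM on a log axis of the 14 members below -0.3 in all 3 lines, with DMSO joined to quisinostat within RT4, RT112 and SW780 cells and 1 library per point. Every line slopes down, from NPM1 at 237 to 290.0 FPKM with DMSO to GNL3L at 4.29 to 7.94 FPKM, and GNL3L in RT112 cells is the steepest, at 4.82 and 1.03 FPKM.

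All 4 genes of the box C/D particle, which guides 2′-O-methylation of ribosomal RNA, were lower in every line before correction for GC content. The correction turned FBL in RT4 and SW780 cells. The plain medians were -0.54, -0.43 and -0.38. NOP56, one of the paired core scaffold proteins, had 44.8 FPKM with DMSO and 28.3 with quisinostat in RT4, 44.6 and 31.1 in RT112, and 59.4 and 35.1 in SW780 cells. NOP58, its partner in the core, had 46.1 and 33.8 FPKM in RT4, 49.3 and 34.8 in RT112, and 57.5 and 38.4 in SW780 cells. For both genes the 3 quisinostat libraries lay below the 3 DMSO libraries. The plain log2 ratios of NOP58, -0.45, -0.50 and -0.58, had an SD of 0.07 over the lines. Corrected for GC content they were further apart, at -0.87, -0.34 and -0.71. The limma adjusted p was 0.319 for NOP58 and 0.293 for NOP56.

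FBL, fibrillarin, is the methyltransferase of the particle and has its highest mean level over the DMSO libraries, though not in RT112 cells, where SNU13, NOP58 and NOP56 were higher. It had 78.6 and 62.0 FPKM in RT4, 42.1 and 33.7 in RT112, and 64.2 and 60.8 in SW780 cells, at a locus that also carries the name DYRK1B. Its difference in SW780 cells was slight (-0.08), and GC correction turned the RT4 ratio from -0.34 to 0.20 and the SW780 ratio to 0.06. SNU13, the protein that binds the kink-turn of the guide RNA, had 54.2 and 34.9 FPKM in RT4, 62.2 and 48.5 in RT112, and 48.6 and 42.9 in SW780 cells, again lower in each pair.

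The genes of the box H/ACA particle, which guides pseudouridylation, were split in direction. Median log2 ratios of the 5 genes were -0.11, -0.25 and 0.14. DKC1, dyskerin, the pseudouridine synthase (chromosome X, 154762742 to 154777689, plus strand), had 50.3 FPKM with DMSO and 27.5 with quisinostat in RT4, 43.6 and 27.6 in RT112, and 47.7 and 35.9 in SW780 cells. The treatments did not overlap, and the mean log2 ratio was -0.65 ± 0.23 (SD, n = 3 lines; limma adjusted p = 0.311). NOP10 (chromosome 15, 34341713 to 34343177, minus strand), which binds the catalytic domain of dyskerin, went the other way: 229 and 394 FPKM in RT4, 167 and 174 in RT112, and 179 and 265 in SW780 cells. Its RT112 ratio of 0.07 is small, and the RT112 quisinostat library was below the RT4 and SW780 DMSO libraries. The mean log2 ratio was 0.47 ± 0.37 (SD, n = 3 lines; limma adjusted p = 0.375). The level of NOP10 over that of DKC1 thus went from 4.55 to 14.3 in RT4, from 3.82 to 6.33 in RT112 and from 3.75 to 7.38 in SW780 cells.

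NHP2, the third core protein, had 43.7 and 16.3 FPKM in RT4, 52.2 and 59.1 in RT112, and 43.7 and 31.4 in SW780 cells, low with quisinostat in RT4 and SW780 cells alone, though the RT112 ratio of 0.18 became -0.16 with GC correction. GAR1, the fourth, stayed within 0.25 of its DMSO level on the log2 scale in every line, at 7.33 to 10.8 FPKM over the 6 libraries. NAF1 had log2 ratios of -0.11, -0.52 and 0.41 at 1.75 to 4.53 FPKM. Because NOP10 made up so much of the total, the log2 ratio of the members' summed FPKM was -0.24, -0.38 and -0.19 with it and -0.46, -0.43 and -0.30 without it.

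**Figure D4:**
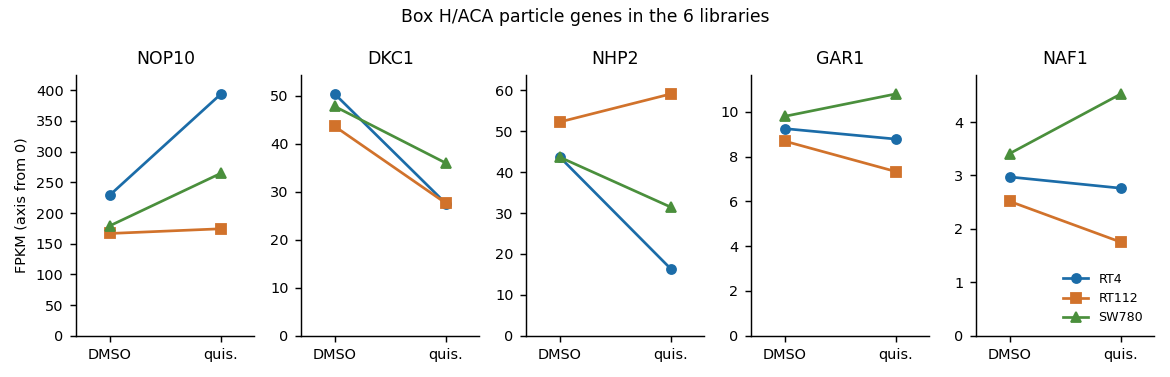
FPKM of the 5 box H/ACA genes with DMSO and with quisinostat in RT4, RT112 and SW780 cells, 1 library per point, each axis from 0. NOP10 is higher with quisinostat (229 and 394 FPKM in RT4 cells) where DKC1 is lower (50.3 and 27.5), and NHP2, GAR1 and NAF1 differ in direction between lines.

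The small subunit processome is the assembly that folds and cleaves the leading part of the ribosomal RNA precursor. The 23 genes of small subunit processing also include factors of later steps, such as NOB1, LTV1 and BYSL. The 23 had medians of -0.43 in RT4 cells, -0.48 in RT112 and -0.02 in SW780 cells. The last turned to 0.01 when each library was rescaled to the same sum. Of the 23, 14 were below -0.3 in RT4 cells (33.5% of all loci were), 17 in RT112 (25.2%) and 6 in SW780 cells (28.2%). In SW780 cells this is no more than the share of all loci. In all 3 lines 3 were below (4.99% of all loci): DDX21, UTP4 and NOP14. DDX21, a nucleolar RNA helicase, had 34.4 FPKM with DMSO and 23.7 with quisinostat in RT4, 68.2 and 38.8 in RT112, and 51.1 and 41.0 in SW780 cells. UTP4, of the UTP-A subcomplex that joins the nascent precursor first, had 17.0 and 12.6 FPKM in RT4, 22.0 and 12.9 in RT112, and 26.9 and 21.1 in SW780 cells. NOP14, a scaffold of the processome, had 31.5 and 18.6 FPKM in RT4, 34.4 and 26.9 in RT112, and 22.1 and 15.8 in SW780 cells. For these 3 genes the lines overlap in level, and the difference is seen within each pair.

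The counts for the subcomplexes varied with the line. Over all loci, 33.5% were below -0.3 in RT4 cells, 25.2% in RT112 and 28.2% in SW780 cells. All 5 UTP-A genes listed (UTP4, UTP15, WDR43, WDR75 and HEATR1) were below -0.3 in RT112 cells, 3 in RT4 cells and 1 in SW780 cells, with medians of -0.77, -0.37 and -0.14 in that order. All 4 UTP-B genes listed (UTP6, UTP18, WDR3 and WDR36) were below -0.3 in RT112 cells too (median -0.56), but 0 were in RT4 cells (median 0.20) and 1 in SW780 cells (median 0.03). With GC correction the RT4 values of these UTP-B genes were all below 0, at -0.30 for UTP6, -0.36 for UTP18, -0.14 for WDR3 and -0.22 for WDR36. The UTP-B proteins PWP2 and TBL3 were not members and are among the further small subunit factors described below. In RT4, RT112 and SW780 cells PWP2 had log2 ratios of -1.61, -0.33 and -0.68. TBL3, at 0.424 to 2.65 FPKM, had -2.12, 0.58 and -0.78. The difference between UTP-A and UTP-B thus holds for the listed genes only. Of these, UTP15, WDR43, WDR75, HEATR1, UTP6, WDR3 and WDR36 were among the 20 members poorest in GC. All 20 were below -0.3 in RT112 cells, so the counts there are not particular to these subcomplexes. NOB1, the endonuclease that makes the last cut of the small subunit RNA, had the lowest mean ratio of the step, with 28.5 and 11.7 FPKM in RT4, 21.5 and 19.4 in RT112, and 24.6 and 16.1 in SW780 cells. UTP3, another processome protein, had the highest, at 12.6 and 18.9 FPKM in RT4, 9.26 and 8.19 in RT112, and 14.7 and 22.3 in SW780 cells. Both had pairs that lay close together in RT112 cells.

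Several genes of this step were past 0.3 in opposite directions in RT4 and RT112 cells, and all of these had the same sign in both lines after correction for GC content. NOC4L, a partner of NOP14, had 7.16 and 1.74 FPKM in RT4, 3.23 and 6.08 in RT112, and 3.34 and 2.61 in SW780 cells. RRP9 had 24.9 and 12.7 FPKM in RT4, 6.51 and 8.51 in RT112, and 5.21 and 5.57 in SW780 cells. UTP15 showed the reverse, with 4.16 and 5.49 FPKM in RT4, 5.16 and 2.99 in RT112, and 6.93 and 6.31 in SW780 cells. WDR3, WDR36, LTV1 (a factor that accompanies the small subunit to the cytoplasm) and DDX10 (a helicase) shared that pattern between RT4 and RT112 cells, with RT4 ratios of 0.34, 0.33, 0.31 and 0.37 and RT112 ratios of -0.61, -0.40, -0.69 and -0.48. Among the others, BYSL, the bystin protein of late small subunit assembly, was at -1.02, -0.48 and 0.27, and UTP14A, a processome protein, at -0.81, -0.74 and 0.02. Corrected for GC content, the RT4 and RT112 ratios were -0.80 and -0.03 for NOC4L, -0.11 and -0.25 for RRP9, and -0.10 and -0.62 for UTP15, and the RT4 ratios of WDR3, WDR36, LTV1 and DDX10 became -0.14, -0.22, -0.10 and -0.09. UTP20, UTP11 and WDR43 were lower in every line, with weakest ratios of -0.26, -0.20 and -0.25, each in SW780 cells.

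Large subunit processing gave medians of -0.28, -0.32 and -0.10 over 16 genes, with 3 below -0.3 in every line (4.99% of all loci). GNL3L, a nucleolar GTPase (chromosome X, 54530211 to 54561071, plus strand), had the lowest mean ratio of all 60. It had 7.94 FPKM with DMSO and 3.72 with quisinostat in RT4, 4.82 and 1.03 in RT112, and 4.29 and 1.60 in SW780 cells. All quisinostat values lay below all DMSO values (log2 ratios -1.10, -2.23 and -1.43, mean -1.59 ± 0.59, SD, n = 3 lines; limma log2 fold change -1.16, SE 0.26, adjusted p = 0.257). Its paralog GNL3, nucleostemin, had 51.1 and 35.1 FPKM in RT4, 27.8 and 16.3 in RT112, and 24.3 and 18.1 in SW780 cells. GNL2, the other GTPase of the family, was at -0.17, -0.48 and 0.07 on the log2 scale. RRP1, a nucleolar protein of large subunit assembly, had 9.46 and 4.22 FPKM in RT4, 18.4 and 12.2 in RT112, and 7.52 and 5.25 in SW780 cells, whereas its paralog RRP1B was at 11.2 and 11.1, 22.0 and 23.7, and 14.0 and 15.6 FPKM in the same order.

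The PeBoW complex (PES1, BOP1 and WDR12), which is needed for maturation of the large subunit RNAs, had plain ratios of unlike sign. BOP1 had 11.9 and 2.10 FPKM in RT4, 7.18 and 12.8 in RT112, and 6.49 and 3.52 in SW780 cells, the widest span of log2 ratios (-2.50 to 0.83) after TCOF1. PES1 was low in RT4 cells alone (-0.85, against -0.01 and -0.05), and WDR12 low in RT112 cells alone (0.22, -0.67 and 0.11). GC correction took BOP1 in RT112 cells to -0.15, PES1 to -0.28 in RT4 and -0.44 in RT112 cells, and WDR12 in RT4 cells to -0.23, so that the 3 genes were then lower in both of these lines. EBNA1BP2, a scaffold of early large subunit particles with the highest mean DMSO level of the step (GNL3 and NOP2 were higher in RT4 cells), had 42.6 and 52.7 FPKM in RT4, 61.3 and 58.1 in RT112, and 61.5 and 61.1 in SW780 cells. NOP2, an RNA methyltransferase whose locus also carries the name CHD4, was within 0.2 of its DMSO level in each line. NOC2L and NOC3L, which partner in nuclear export of the large subunit precursor, parted in RT4 and RT112 cells: -1.33 and 0.26 for NOC2L, 0.18 and -0.90 for NOC3L. Corrected for GC content both were lower in both lines, with -0.56 and -0.31 for NOC2L and -0.36 and -0.73 for NOC3L.

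The opposite ratios in RT4 and RT112 cells went with the GC content of the transcripts. Across the 60 members, Spearman's rho between GC content and log2 ratio was -0.70 in RT4 cells, 0.62 in RT112 and -0.31 in SW780 cells; over 8407 loci it was -0.48, 0.44 and -0.22. These coefficients describe genes that share the same pairs of libraries. The 20 members richest in GC (51.7% to 65.2%), among them BOP1, NOC4L, NOC2L and RRP9, had medians of -0.99 in RT4 cells, -0.12 in RT112 and -0.32 in SW780 cells. The 20 poorest (37.3% to 43.5%) had 0.02, -0.66 and -0.15, and all 20 were below -0.3 in RT112 cells. The members as a whole had a median GC content of 47.5%, close to the 48.2% of the loci tested.

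After a smooth trend on GC content was subtracted in each line, the medians of the members were -0.49, -0.43 and -0.19, and the low, middle and high GC groups of 20 had -0.43, -0.51 and -0.52 in RT4, -0.50, -0.43 and -0.34 in RT112 and -0.30, -0.07 and -0.22 for SW780 cells. By this measure 19 of the 60 were below -0.3 in every line (31.7%, against 7.72% of 8407 loci), and 12 of the 14 were among them. NOP56 and RRP1 were no longer below in all lines, and POLR1C, UTP11, UTP18, UTP20, WDR43, NOB1 and NOC3L were. Across the members, the log2 ratios of RT4 and SW780 cells had a Spearman's rho of 0.69 and those of RT4 and RT112 cells -0.21, which became 0.73 and 0.22 after the correction. Whether GC content reflects the libraries or the cells was not tested.

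**Figure D5:**
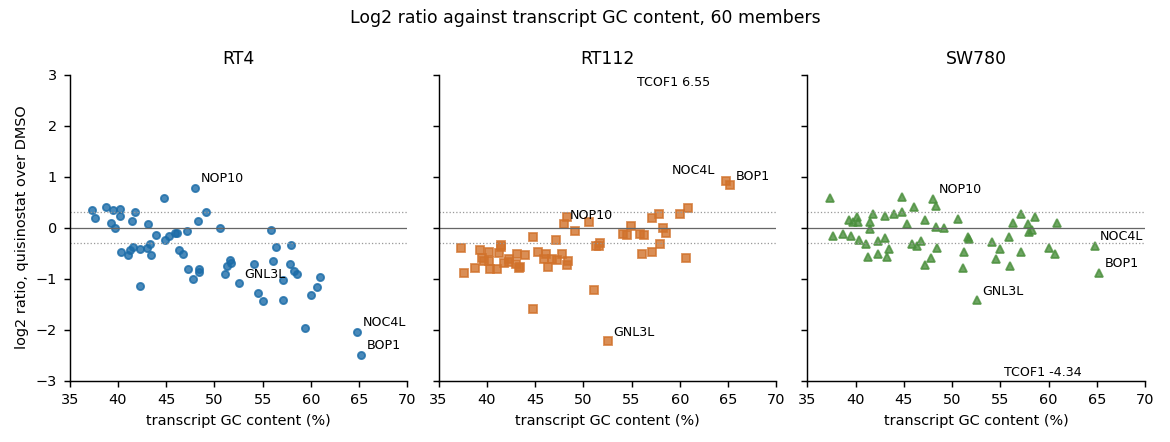
Log2 ratio of FPKM against transcript GC content (longest protein-coding GENCODE transcript) for the 60 members in RT4, RT112 and SW780 cells, with dotted lines at -0.3 and 0.3 and 2 values of TCOF1 printed as text because they are off the scale. The points slope down in RT4 (rho -0.70), up in RT112 (0.62) and slightly down in SW780 cells (-0.31).

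The members that carry small nucleolar RNA genes within them had lower medians than the rest. Such RNAs are processed from introns of the host transcript. GENCODE places small nucleolar RNA genes on the same strand inside 8 of the 60 members: TAF1D (8 of them), NCL, NOP56, NOP58, DKC1, GNL3, WDR43 and POLR1C. All 8 were below -0.3 in RT4 and RT112 cells and 6 in SW780 cells, the exceptions being WDR43 and POLR1C, with medians of -0.60, -0.65 and -0.47. The other 52 members had medians of -0.38, -0.39 and -0.07, with 8 below in all lines. Among 180 protein-coding loci with such genes inside, members included, 12.2% were below -0.3 in all lines, against 4.52% of 7993 protein-coding loci. This split was made after the members' values were seen and has no test.

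Other genes of the pathway were looked at through 7 lists: the remaining polymerase I subunits and selectivity factors, subunits shared by the polymerases, RNA polymerase III subunits, further small and large subunit factors, assembly factors of the nucleolar particles and the RNA exosome. Of 118 of these genes with a ratio in every line, 6 were below -0.3 in all 3 lines (5.08%, near the 4.99% of all loci) and 0 were above 0.3 in all 3. The 6 were POLR3K, a small RNA polymerase III subunit (-1.07, -0.66 and -0.55), RSL1D1, a nucleolar protein (-0.96, -0.80 and -0.42), and the small subunit factors PDCD11, PWP2, TSR1 and EMG1, whose weakest ratios lay between -0.33 and -0.31. EMG1 shares its locus name with C1S. None of the 4 further polymerase I genes found, TWISTNB, CD3EAP, ZNRD1 and TAF1B, was below -0.3 in all lines, and TWISTNB was at 1.02, -0.22 and 0.58. In RT4, RT112 and SW780 cells the further small subunit factors (37 loci) had median log2 ratios of -0.16, -0.31 and -0.01. The further large subunit factors (41 loci) had -0.21, -0.20 and -0.02. The assembly factors of the nucleolar particles (9 loci) had 0.36, -0.31 and 0.15.

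As a check on the labels, 11 of 14 urothelial markers were at 1 FPKM or more in all 6 libraries, and UPK3A was listed at 0 in both RT112 libraries. The sum of the 14 went from 1721 FPKM with DMSO to 909.7 with quisinostat in RT4 and from 1668 to 963 in SW780 cells, but from 1122 to 1609 in RT112 cells, where the members had their lowest median. None of 5 leukocyte and none of 4 endothelial marker names was found in the table. Of 6 fibroblast markers 3 were found, with a sum of 1.16 to 135 FPKM, nearly all of it LUM in RT112 cells (135 with DMSO and 133 with quisinostat). Their part in the results was not tested. Read counts and depths are unknown from FPKM, so no counting interval can be given for a value.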

How the data were processed

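RNA-seq of RT4, RT112 and SW780 cells with DMSO or quisinostat was analysed, 6 libraries in all. The authors prepared polyadenylated, stranded libraries and ran HISAT2, StringTie and Ballgown, and the deposited values are FPKM per assembled locus. The submitters' processing notes name CASAVA 1.8.2, Trimmomatic 0.36, HISAT2 2.2.1, SAMtools 1.15.1, StringTie 2.2.1 and the build GRCh38. The annotation, the filter on rows and whether counting used strand are not given in the sources used here. Groups were taken from the sample titles, since 1 other label misspells the SW780 line. All 6 value columns were used, and 0 were left out.

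One value per locus was taken. Plain log2 ratios were counted against a limit of 0.3. limma 3.58.1 (R 4.3.3) was run on log2(FPKM + 1) for loci with a mean of at least 1 FPKM, with a trend, the cell line as a block and Benjamini-Hochberg adjustment over all loci. A fold change on this scale understates low genes. The pairing comes from the shared cell line. GC content came from GENCODE 29 transcripts, with a lowess span of 0.3. Both steps were run on simulated data with a common noise level for all loci and planted changes larger than the mean log2 ratio of any member. Changes of the size seen in the members were not simulated. Python 3.11.15 with pandas 2.3.3, NumPy 2.4.6, statsmodels 0.14.6 and matplotlib 3.10.9 was used.

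The members and lists were chosen with earlier results of these data known. Values in all libraries were given, per step, for the member with the highest mean DMSO level and those with the lowest and the highest mean ratio, for up to 12 members past the limit in all lines, and for the 5 with the widest opposite ratios. DDX21 and NPM1 also fall under the first part. GAR1, NAF1, SNU13, NHP2, UBTF and POLR1B were added after their values were seen. Alternatives were pseudocounts of 0.1 and 1, centring, rescaling, GC correction, a filter at 5 FPKM, single-name loci, limits of 0.5 and 1, leaving out a line, and for limma no block, no trend, no filter and quantile normalization.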

Additional observations from a re-analysis of the deposited data

Results flagged for a closer look

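Differences between lines were noted where members lay past 0.3 in opposite directions, and none of these differences was tested, since each line has 1 pair of libraries. Over any of the lines, 10 of the 60 members lay past 0.3 in opposite directions, against 2670 of 9112 loci. This is a smaller share for the members than for all loci. Below -0.3 in RT4 cells and above 0.3 in RT112 cells were 4 members (TCOF1, NOC4L, RRP9 and BOP1). The reverse, above in RT4 and below in RT112 cells, held for 5 members (UTP15, WDR3, WDR36, LTV1 and DDX10). Below in RT112 and above in SW780 cells were 2 members (NAF1 and WDR36), and below in SW780 and above in RT112 cells were 3 (TCOF1, NOC4L and BOP1). The span between the highest and the lowest log2 ratio over the lines was 10.9 for TCOF1, 3.33 for BOP1, 2.95 for NOC4L, 1.35 for RRP9 and 1.19 for UTP15. After correction for GC content, 8 of the 9 members with opposite directions in RT4 and RT112 cells had the same sign in both, and 1, TCOF1, did not.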

How the results depend on the processing

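The count of members below -0.3 in all 3 lines was 14, and it was between 12 and 19 under both pseudocounts, centring, rescaling, GC correction, the filter at 5 FPKM, single-name loci and without TCOF1. A limit of 0.5 left 7 and a limit of 1 left 1, GNL3L. Leaving out a line, which can only keep or raise a count, gave 15 to 23 members below and 0 to 3 above. The members' medians kept their sign in each line under all of these settings. limma called 0 members at the adjusted threshold in every setting tried. At an unadjusted p under 0.05, 16 members were lower. Without the cell line block this was 7 and without the trend 10, while leaving out a line gave 1 to 12 lower (1 without SW780 cells) and 0 to 1 higher, and quantile normalization gave 1 higher. Of 144 step medians under an alternative, 125 moved by less than 0.1 with the same sign. Part of this was fixed in advance. Centring and rescaling shift every median of a line by the same amount, under 0.1 here, and leaving out TCOF1 changes only its own step. Members with levels at least 2-fold apart between DMSO libraries numbered 8, and 4 with a pseudocount of 1, which shrinks ratios of low values. The causes of the other shifts were not tested. The depth of each library is unknown.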
